A study of Mus musculus with 15 samples.

Results

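The B cell receptor proximal signalling genes are the 9 genes Cd79a, Cd79b, Syk, Btk, Blnk, Plcg2, Vav1, Cd81 and Cr2, taken by symbol from the 51912 genes of the deposited table. All 9 were found and all 9 were among the 15692 genes that passed the filter on low counts. They were compared across 15 libraries in 5 groups of 3 biological replicates, all from wild-type mouse B cell cultures. The D6 group is the bulk, unsorted culture after 6 days on 40LB feeder cells, a fibroblast line that supports B cell growth, with IL-4 at 100 ng/ml. The other groups were lifted off the feeders, left for 2 days in RPMI medium with no stimulus and sorted at day 8 into IgE iGC, IgG1 iGC, IgE PC and IgG1 PC cells, where PC stands for plasma cell and iGC is the submitters' abbreviation, not spelled out in the labels. No group carried a deletion, a transgene or a further agent. Mouse strain, age and the markers used for sorting are not given in the sources used here. The labels do not say whether replicates came from separate animals or cultures, so p-values measure the spread between these libraries, which may in part be technical.

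The B cell receptor is a membrane immunoglobulin joined to a heterodimer of Cd79a and Cd79b, whose cytoplasmic tails carry the tyrosine motifs that start the signal. Src family kinases phosphorylate these motifs, the kinase Syk docks on them, and Syk phosphorylates the adaptor Blnk, on which Btk and the phospholipase Plcg2 assemble. Plcg2 then makes the messengers that release calcium and activate protein kinase C, while Vav1 activates small GTPases that act on the cytoskeleton. A coreceptor that holds the complement receptor Cr2 and the tetraspanin Cd81 amplifies the signal.

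Library totals ran from about 17740900 to 54068000 expected counts, and every pair of replicates differed by more than sampling noise (chi-square per degree of freedom of 4.48 or more). This value was largest between IgG1 PC replicates, at 98.5, 70.4 and 29.4, and at most 24.5 within the other groups. Immunoglobulin transcripts took 19.8 to 21.5% of each IgE PC library, 21.7, 15.3 and 16.1% of IgG1 PC replicates 1 to 3, and 1.39 to 1.62% of the other libraries. Levels are therefore given as CPM after scaling by TMM, a method that sets the typical gene equal between libraries. The summed level of 6 plasma cell markers ran from 16293 to 18760 CPM across IgE PC libraries, from 9098 to 13375 CPM across IgG1 PC libraries and reached at most 741 CPM elsewhere. The sum of 5 B cell markers was 7251 to 7754 CPM in the iGC groups, 3914 to 4042 CPM in D6, 2645 to 3478 CPM for IgG1 PC and 2341 to 2550 CPM for IgE PC. Markers of myeloid cells summed to at most 8.57 CPM in any library, and those of T cells, NK cells and mast cells, each list on its own, to less.

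Most of these genes were expressed at a substantial level in every group. Averaged over the 15 libraries on the TPM scale, which corrects for gene length, Cd79a at 1330 TPM and Cd79b at 1061 TPM were the most abundant. Cd81 followed at 289 TPM, Blnk at 223 TPM, Plcg2 at 198 TPM, Vav1 at 114 TPM, Btk at 91.2 TPM and Syk at 68.8 TPM. Cr2 was the least abundant at 12.9 TPM. The subunits Cd79a and Cd79b together made up 73.8 to 76.3% of the summed TPM of the 9 genes in the iGC libraries, 69.1 to 70.4% in IgG1 PC, 64.0 to 65.6% in D6 and 59.9 to 61.2% in IgE PC, so that the 4 ranges did not overlap.

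**Figure D1:**
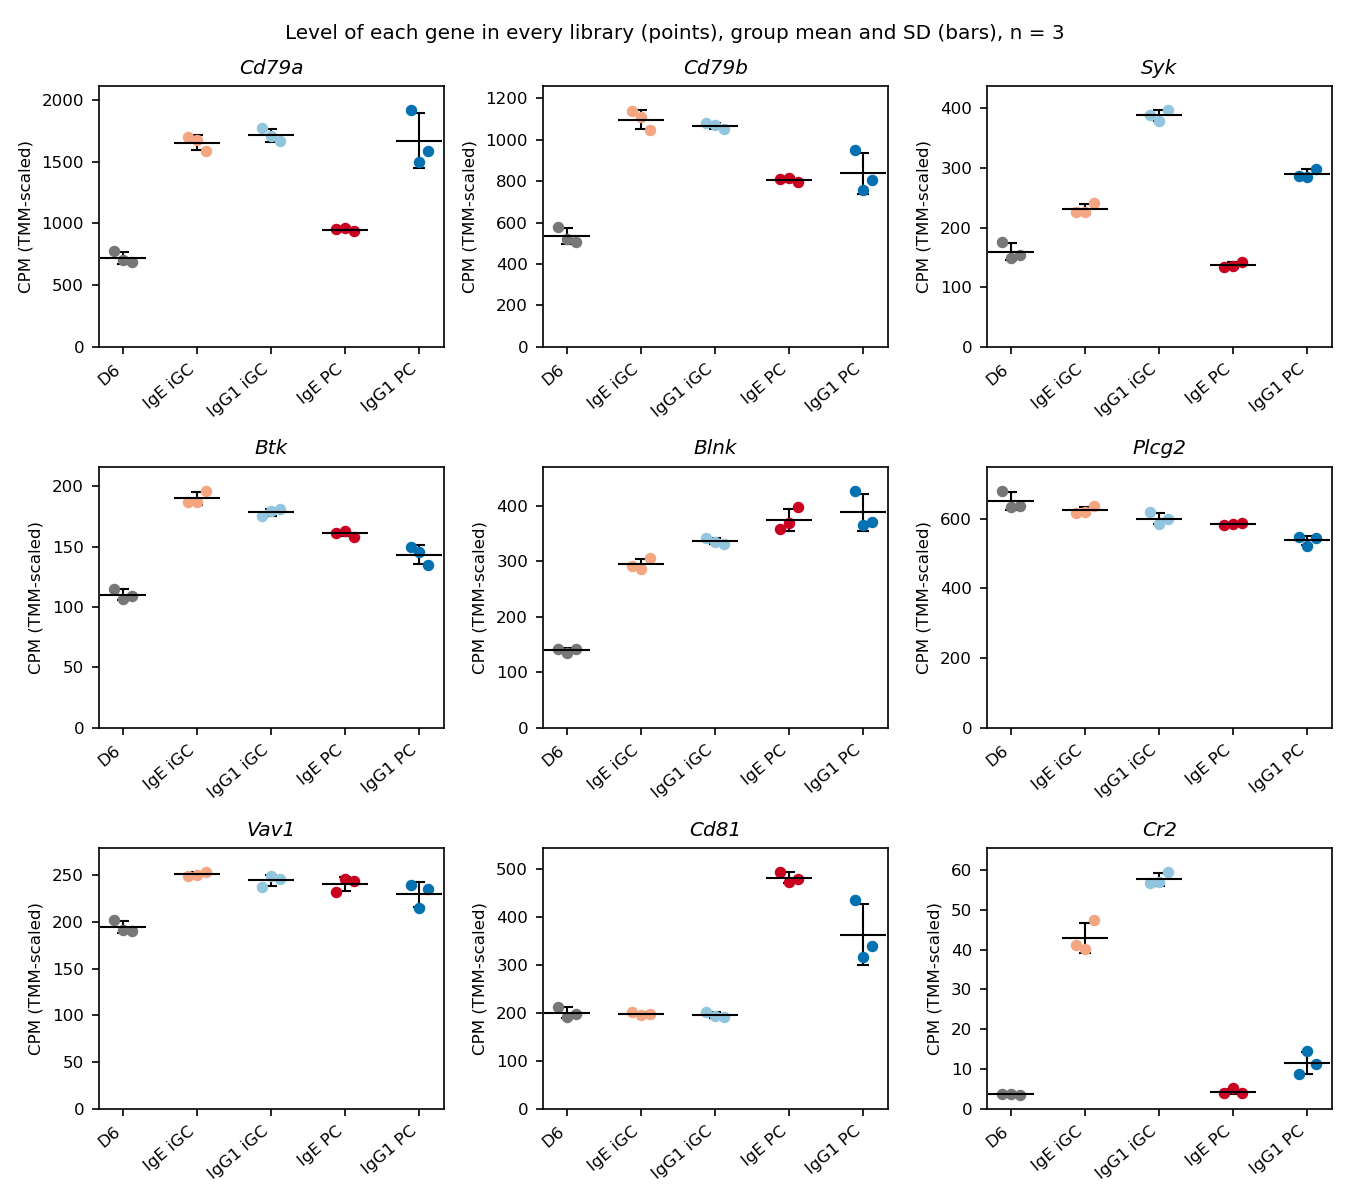
Level of each of the 9 genes in every library, in TMM-scaled CPM on a linear axis from 0, with points for libraries and bars for the group mean and SD (n = 3). Cr2 spans 3.50 to 59.6 CPM and Plcg2 only 523 to 680 CPM, and in Syk none of the 5 groups overlaps its neighbours.

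The central contrast is between plasma cells of the 2 isotypes, which the study's title singles out for IgE and for calcium signalling. In IgE PC, Syk was 2.12-fold lower than in IgG1 PC, Cd79a was 1.76-fold lower and Cr2 was 2.70-fold lower, while Cd81 was 1.33-fold higher. Btk was 1.12-fold and Plcg2 1.09-fold higher, and both of these rises turned to values below 0 when libraries were scaled by their total counts (log2 difference -0.082 and -0.13). Thus 3 genes were called higher and 3 lower at an adjusted p under 0.05 (edgeR quasi-likelihood test). Calls were common in this contrast: 58.1% of all genes tested were called, 27.4% higher and 30.7% lower, so 6 of 9 is close to that background. With total-count scaling the split of the 9 genes was 0 higher and 7 lower, and that of all genes moved from 4303 higher and 4816 lower to 2274 and 7261, with a median of -0.30 (log2) against -0.05 under TMM.

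Between the iGC cells of the 2 isotypes 1 of the 9 genes passed the test, Syk, which was 1.68-fold lower in IgE iGC. Here 3.87% of all genes were called, 1.99% higher and 1.88% lower. Cr2 was 1.35-fold lower in IgE iGC with an adjusted p of 0.0872, and Blnk 1.14-fold lower with an adjusted p of 0.135 (edgeR), and neither passed. Both passed when only these 2 groups entered the fit (adjusted p = 0.000807 and 0.00747, edgeR), and Blnk also passed under total-count scaling (-0.20, adjusted p = 0.0335, edgeR) and on the TPM scale (-0.21, adjusted p = 0.0357, limma).

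From iGC to PC, 7 of 9 genes were called in each isotype. In IgE cells Cd79a, Cd79b, Syk, Btk and Cr2 fell and Blnk and Cd81 rose, in a contrast where 64.1% of all genes were called, 30.5% higher and 33.6% lower. In IgG1 cells Cd79b, Syk, Btk, Plcg2 and Cr2 fell and Blnk and Cd81 rose, where 59.1% of all genes were called, 30.1% higher and 29.0% lower. When only the IgG1 iGC and PC groups were fitted, Blnk (0.22, adjusted p = 0.0531, edgeR) and Plcg2 (-0.14, adjusted p = 0.117, edgeR) lost their calls in this step. The rise of Blnk became a fall of 0.12 (log2) in IgE and of 0.030 in IgG1 under total-count scaling, which moved the median of all genes to -0.55 and -0.22. The split of called members then went to 1 higher and 8 lower in IgE, and 1 and 7 in IgG1; for all genes it went from 4787 higher and 5271 lower to 2651 and 8742 in IgE, and from 4720 and 4553 to 3224 and 6844 in IgG1. Without IgG1 PC replicate 1, the library with the most immunoglobulin reads of its group, 9 of 9 genes were called in the IgG1 step, Cd79a (fall of 0.15) and Vav1 (fall of 0.12) being added. The count of all genes called moved too, from 9273 in the full fit to between 8326 and 9803 in fits without 1 library.

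**Figure D2:**
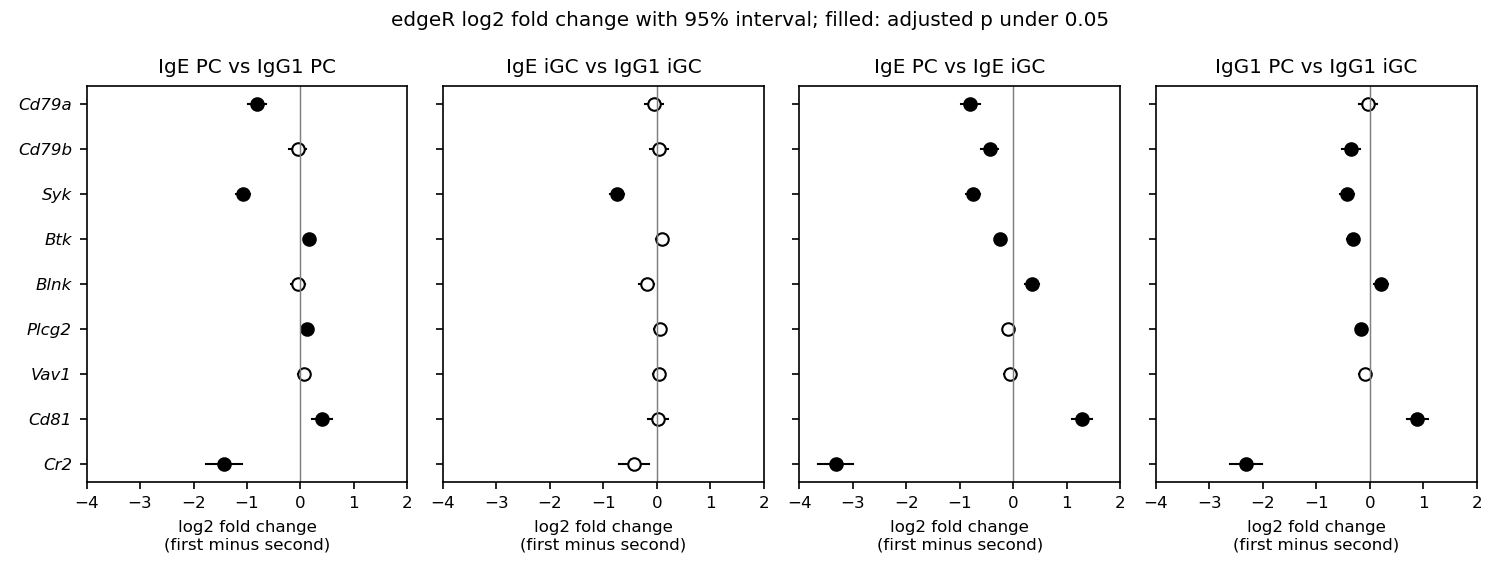
Log2 fold changes of the 9 genes (horizontal axis, first group minus second) with 95% intervals in 4 comparisons; filled points passed an adjusted p of 0.05 in edgeR. Syk lies left of 0 in every panel, Cd81 lies at 1.28 and 0.89 in the plasma cell steps, and Cr2 reaches -3.32.

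The test of whether the plasma cell step differed between isotypes (the interaction) called 4 of the 9 genes, where 42.9% of all genes were called, 19.8% higher and 23.1% lower. The fall in IgE exceeded that in IgG1 for Cd79a by 0.76 (log2), for Cr2 by 1.00 and for Syk by 0.33, and the rise of Cd81 was larger in IgE by 0.39. Total-count scaling kept the first 3 calls, of which Cr2 was lost on the TPM scale (-0.73, adjusted p = 0.128, limma). Cd81 lost its call under total-count scaling (0.16, adjusted p = 0.202, edgeR) and on the TPM scale (0.18, adjusted p = 0.146, limma). For the remaining 5 genes the intervals of the difference included 0, for example -0.32 to 0.14 for Cd79b and -0.08 to 0.21 for Plcg2. Under total-count scaling the 9 genes split into 0 higher and 5 lower, and all genes into 1544 and 5603 in place of 3101 and 3632.

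Relative to D6, the day 6 culture with feeder cells still present, most of the genes were higher in every sorted group on the TMM scale. On the TPM scale (limma) Cd79a (-0.49), Cd79b (-0.29), Btk (-0.33) and Vav1 (-0.59) were instead called lower in IgE PC. Btk (-0.37) and Vav1 (-0.49) were called lower in IgG1 PC on that scale. The 4 comparisons share the D6 libraries and are not independent. In IgE iGC 7 genes were called, all higher, where 69.1% of all genes were called (32.8% higher, 36.3% lower). In IgG1 iGC 7 were higher and 1 lower, where 68.4% of all genes were called (32.4% higher, 36.0% lower). In IgE PC 6 were higher and 2 lower, with 76.4% of all genes called (36.9% higher, 39.5% lower), and in IgG1 PC 8 were higher and 1 lower, with 71.9% called (35.9% higher, 36.0% lower). Under total-count scaling the IgE PC split was 2 higher and 3 lower, since Cd79a (-0.13) and Vav1 (-0.23) changed sign and Cd79b (0.06) and Btk (0.01) lost their calls; all genes split into 3311 higher and 9026 lower there against 5792 and 6191. With immunoglobulin genes left out of the scaling, 6 genes were called higher in IgE PC, and Syk (-0.11, adjusted p = 0.124, edgeR) and Plcg2 (-0.040, adjusted p = 0.467, edgeR) lost their calls as lower. In IgG1 PC the split under total-count scaling was 6 higher and 1 lower, with all genes at 3964 and 7369 against 5636 and 5645. The summed level of 8 fibroblast markers was 230 to 348 CPM in D6, 72.2 to 187 CPM in IgG1 PC, 38.7 to 73.9 CPM in the iGC groups and 23.1 to 35.7 CPM in IgE PC, with Postn at 0 in the libraries of every group but IgG1 PC. In such bulk samples fewer cells of a type and less RNA per cell cannot be told apart, and the part of feeder RNA in these differences was not tested.

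Cd79a (ENSMUSG00000003379, GRCm38 chromosome 7, 24897381 to 24902197, plus strand) encodes the receptor's alpha signalling chain. In D6 its replicates measured 773, 701 and 683 CPM. The iGC libraries lay above at 1702, 1675 and 1587 CPM for IgE and 1769, 1708 and 1664 CPM for IgG1. IgG1 PC overlapped the iGC groups at 1921, 1499.6 and 1589 CPM, whereas IgE PC measured 954, 961 and 934 CPM. On the TMM scale every IgE PC library was thus below every IgG1 PC and iGC library and above every D6 library. On the TPM scale IgE PC measured 612 to 665 TPM, below D6 at 861 to 962 TPM (log2 difference -0.49, adjusted p = 6.83e-07, limma). Under total-count scaling the difference from D6 was -0.13 and did not pass. The log2 difference between IgE PC and IgG1 PC was -0.81 (SE 0.08, adjusted p = 5.08e-07, edgeR), and leaving out each library in turn gave -0.88 to -0.70. From iGC to PC, Cd79a fell by 0.80 in IgE (SE 0.08, adjusted p = 2.47e-07, edgeR), while the IgG1 step was -0.04 (95% interval -0.21 to 0.13) and did not pass. The IgG1 step was called lower under total-count scaling (-0.28, adjusted p = 0.0014, edgeR) and on the TPM scale (-0.65, adjusted p = 1.2e-07, limma).

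Cd79b (ENSMUSG00000040592, chromosome 11, 106311341 to 106314762, minus strand), the beta chain of the same dimer, had another pattern. IgE PC stood at 811, 815 and 795 CPM and IgG1 PC at 951, 757 and 805 CPM, so that the plasma cell groups overlapped. Both lay below IgE iGC (1139.7, 1108 and 1046 CPM) and IgG1 iGC (1079, 1074 and 1053 CPM) and above D6 (580.1, 519 and 508 CPM). On the TPM scale IgE PC (640 to 693 TPM) lay below D6 (785 to 886 TPM), a difference of -0.29 (adjusted p = 0.00016, limma). IgG1 PC (759 to 796 TPM) overlapped D6 on that scale. The difference between IgE PC and IgG1 PC was -0.05 (95% interval -0.21 to 0.11), but was called lower under total-count scaling (-0.30, adjusted p = 0.00078, edgeR) and on the TPM scale (-0.20, adjusted p = 0.00876, limma). The step from iGC to PC was a fall of 0.44 in IgE and of 0.35 in IgG1 (adjusted p = 9.18e-05 and 0.000998, edgeR), and the interaction of -0.09 did not pass, though it did under total-count scaling (-0.32, adjusted p = 0.0078, edgeR) and on the TPM scale (-0.21, adjusted p = 0.049, limma).

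The ratio of Cd79a to Cd79b counts within a library does not depend on how libraries are scaled. It averaged 1.34 ± 0.01 (SD, n = 3) in D6, 1.51 ± 0.01 in IgE iGC and 1.60 ± 0.03 in IgG1 iGC. The plasma cells lay on either side, with 1.18 ± 0.002 in IgE PC and 1.99 ± 0.02 in IgG1 PC. The 5 groups did not overlap. Each of 8 comparisons of 2 groups gave the smallest p that an exact two-sided permutation test of 3 against 3 can reach, 0.1 (0.1 after Benjamini-Hochberg adjustment), so none could fall under 0.05. Cd79a is the only one of the 9 genes whose expected counts were not whole, which was so in all 15 libraries; RSEM gives such counts where it divides reads between genes.

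**Figure D3:**
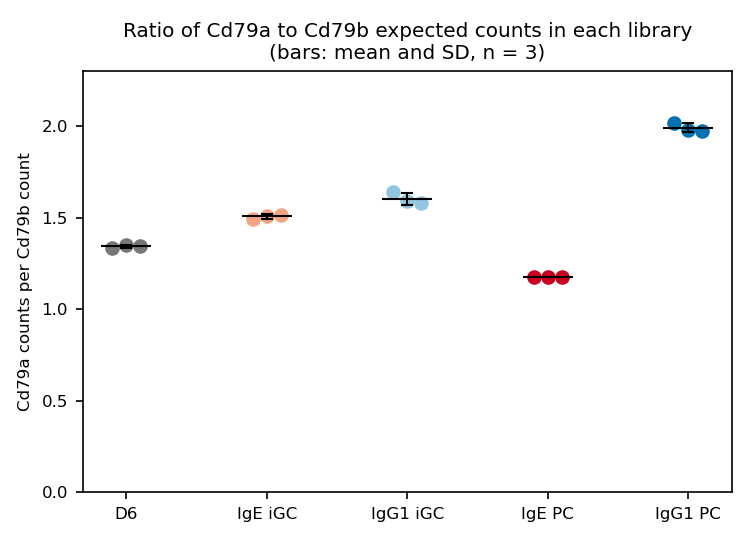
Cd79a counts per Cd79b count in each library (points) with the group mean and SD (bars, n = 3), on a linear axis from 0. IgG1 PC libraries lie between 1.98 and 2.02, IgE PC libraries at 1.17 to 1.18, and the other groups lie between them.

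Syk (ENSMUSG00000021457, chromosome 13, 52583173 to 52648792, plus strand), the kinase that docks on the phosphorylated dimer, was the one gene of the set called between the isotypes at both stages. IgG1 iGC libraries measured 389, 379 and 398 CPM and IgG1 PC libraries 287, 286 and 299 CPM. IgE iGC stood at 226, 226 and 241 CPM, D6 at 175, 149 and 154 CPM and IgE PC at 134, 136 and 142 CPM. No neighbouring groups in this order overlapped on the TMM scale. On the TPM scale IgG1 PC (51.9 to 68.1 TPM) lay below IgE iGC (70.2 to 77.1 TPM) and overlapped D6 (54.1 to 62.0 TPM). The difference of IgG1 PC from D6 then lost its call (0.11, adjusted p = 0.291, limma). The isotype difference was -0.75 in iGC (SE 0.06, adjusted p = 6.19e-06, edgeR) and -1.08 in PC (SE 0.06, adjusted p = 2.02e-09, edgeR), and stayed within -0.78 to -0.73 and -1.09 to -1.06 when single libraries were left out. Of all genes tested, 3.94% had a lower value than Syk in the iGC contrast and 15.6% in the PC contrast. The step to PC was a fall of 0.75 in IgE and of 0.42 in IgG1 (adjusted p = 2.45e-08 and 2.77e-05, edgeR).

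The feeder markers given above differed between the plasma cell groups, and so did the plasma and B cell marker sums, in the same libraries as Syk and Cd79a, and their part in these results was not tested. Between the iGC groups, the feeder sums (55.1 to 73.9 CPM for IgE, 38.7 to 66.9 CPM for IgG1) and the B cell sums overlapped. The plasma cell sums (647 to 741 CPM for IgE, 370 to 391 CPM for IgG1) and the germinal centre sums (682 to 726 CPM for IgE, 547 to 596 CPM for IgG1) did not, and their part in the Syk difference was not tested either.

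Promoter windows are shown for context for the 3 genes called lower in IgE PC than in IgG1 PC on the TMM scale. Under total-count scaling 7 of the 9 genes were lower, so this choice depends on the scaling. Whether the 3 genes share any control was not tested. They run from 250 bases before to 50 after the start site given by RefSeq (GRCm38.p6), 5′ to 3′ on the gene's strand, with capitals for a match to the PU.1 core GAGGAA on either strand. The RefSeq window table used here matched 8 of the 9 genes, all but Cd79b, with 2 start sites for Syk. The PU.1 core lies in 28.3% of 32851 such windows. None of the 4 windows held an exact match to the EBF core CCCNNGGG (13.7% of windows), the octamer ATGCAAAT (1.74%) or TATAAA (13.6%), each searched on both strands. Sites that differ from these letters were not searched for, so the windows may still hold binding sites of these factors. The PU.1 core lay at -140 for Cd79a and at -9 for the downstream start of Syk.
Cd79a, chr7:24897247-24897546, plus strand: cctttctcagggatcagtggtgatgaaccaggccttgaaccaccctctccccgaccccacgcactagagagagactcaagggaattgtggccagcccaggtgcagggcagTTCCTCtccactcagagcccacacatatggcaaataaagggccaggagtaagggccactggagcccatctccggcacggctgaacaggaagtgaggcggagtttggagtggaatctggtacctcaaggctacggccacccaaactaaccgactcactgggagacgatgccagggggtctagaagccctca
Syk, upstream start, chr13:52583187-52583486, plus strand: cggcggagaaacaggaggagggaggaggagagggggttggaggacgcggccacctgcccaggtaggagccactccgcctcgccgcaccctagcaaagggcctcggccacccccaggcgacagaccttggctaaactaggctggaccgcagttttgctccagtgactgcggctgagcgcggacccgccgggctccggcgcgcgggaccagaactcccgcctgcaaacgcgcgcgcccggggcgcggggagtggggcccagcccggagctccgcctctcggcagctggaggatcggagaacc
Syk, downstream start, chr13:52596632-52596931, plus strand: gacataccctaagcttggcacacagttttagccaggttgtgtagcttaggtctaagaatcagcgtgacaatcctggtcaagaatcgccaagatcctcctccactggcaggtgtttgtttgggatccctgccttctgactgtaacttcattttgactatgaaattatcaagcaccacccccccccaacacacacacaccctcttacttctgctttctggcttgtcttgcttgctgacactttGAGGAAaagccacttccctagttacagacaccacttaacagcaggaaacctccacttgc
Cr2, chr1:195176670-195176969, minus strand: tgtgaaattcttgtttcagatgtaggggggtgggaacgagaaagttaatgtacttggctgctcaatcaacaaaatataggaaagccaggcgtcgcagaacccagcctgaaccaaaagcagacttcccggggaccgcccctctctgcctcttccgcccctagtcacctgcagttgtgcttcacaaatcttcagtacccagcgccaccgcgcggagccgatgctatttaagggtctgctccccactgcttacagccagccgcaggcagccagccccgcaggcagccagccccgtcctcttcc
The upstream Syk window is 72.0% G and C and the downstream one 48.0%. Gene level counts do not say which start was used.

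Blnk (ENSMUSG00000061132, chromosome 19, 40928927 to 40994535, minus strand), the scaffold on which Btk and Plcg2 meet, was highest in the plasma cells on the TMM scale. IgE PC measured 358, 370 and 397 CPM and IgG1 PC 427, 365 and 372 CPM, which overlap. IgG1 iGC lay below at 342, 335 and 332 CPM, IgE iGC at 291, 287 and 306 CPM and D6 at 142, 134 and 143 CPM, with no overlap between these groups. The rise from iGC to PC was 0.35 in IgE and 0.21 in IgG1 (adjusted p = 0.000177 and 0.0111, edgeR), and on the TPM scale the same steps were -0.38 and -0.41 (limma on log2(TPM + 1), adjusted p = 7.56e-06 and 4.79e-06). After subtracting the median of all genes, the total-count values were 0.42 and 0.19. The IgG1 rise lost its call when only the IgG1 iGC and PC groups were fitted (0.22, adjusted p = 0.0531, edgeR). Between plasma cells Blnk stood at -0.05 on counts (95% interval -0.18 to 0.09) and was called lower under total-count scaling (-0.30, adjusted p = 0.000111, edgeR) and on the TPM scale (-0.18, adjusted p = 0.00998, limma). The Blnk promoter window was the only one of the 9 with an octamer match, printed in capitals as its reverse complement.
Blnk, chr19:40994172-40994471, minus strand: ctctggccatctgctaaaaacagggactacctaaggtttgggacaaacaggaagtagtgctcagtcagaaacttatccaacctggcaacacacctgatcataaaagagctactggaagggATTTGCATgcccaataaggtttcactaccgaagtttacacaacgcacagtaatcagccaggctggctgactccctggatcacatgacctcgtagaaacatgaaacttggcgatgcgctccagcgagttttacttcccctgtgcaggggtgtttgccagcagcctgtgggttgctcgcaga

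**Figure D4:**
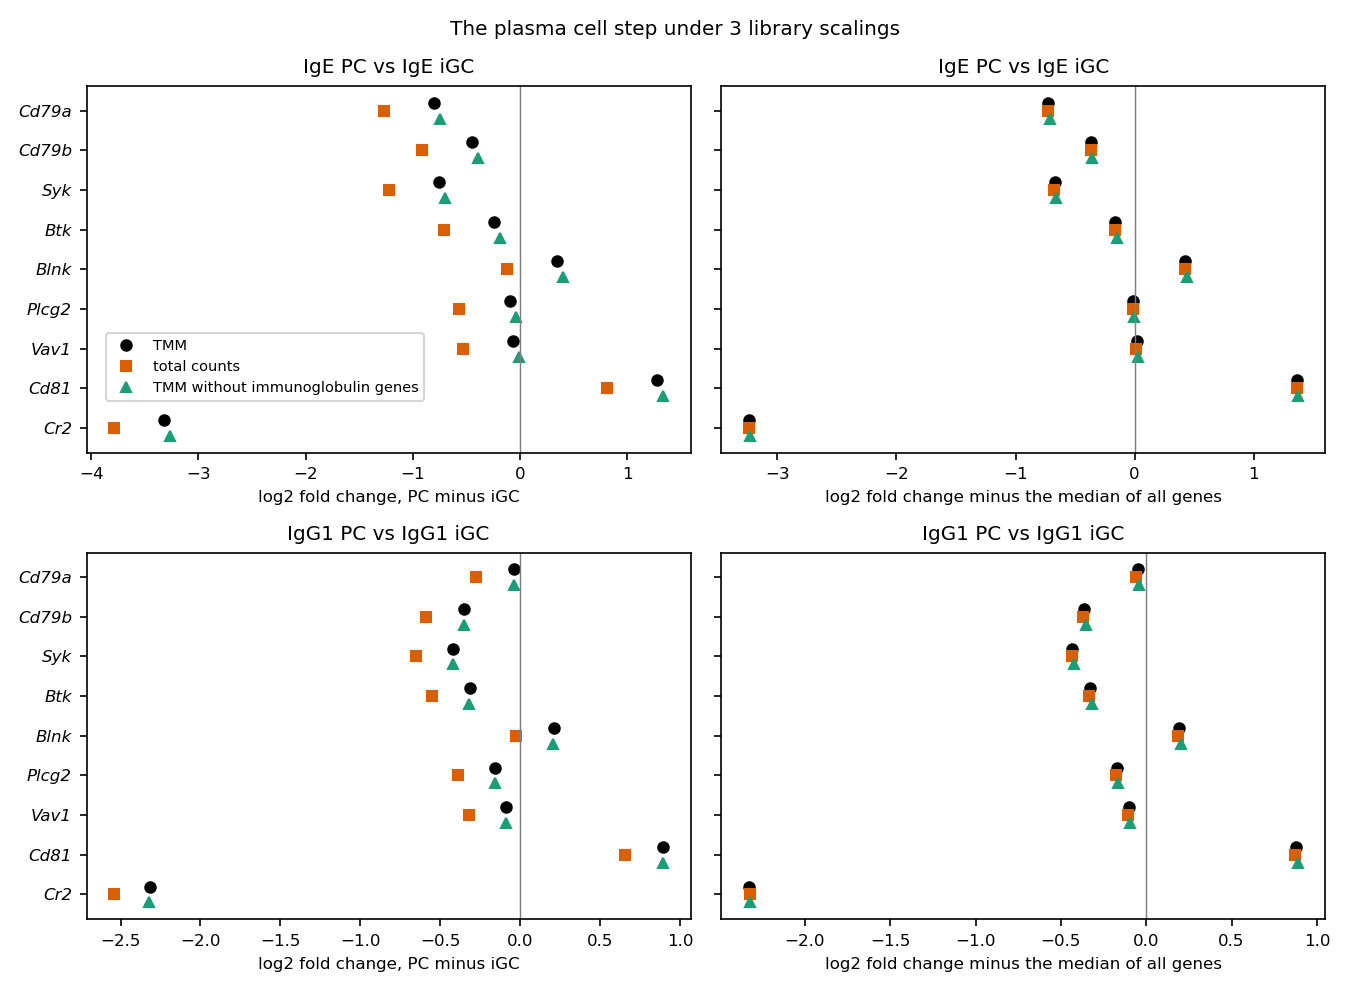
The step from iGC to PC for the 9 genes under 3 library scalings, as log2 fold change (left panels) and after subtracting the median of all genes tested (right panels). The scalings differ by a near constant shift, which moves Blnk across 0 in the left panels and leaves it at 0.42 to 0.44 in IgE and 0.19 to 0.20 in IgG1 in the right ones.

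Btk (ENSMUSG00000031264, chromosome X, 134542336 to 134583570, minus strand), the Tec family kinase that activates Plcg2, varied less. Its libraries measured 187, 187 and 196 CPM in IgE iGC, 175, 179 and 181 CPM in IgG1 iGC and 115, 107 and 109 CPM in D6. IgE PC stood at 161, 163 and 158 CPM, all above the 149.98, 145 and 135 CPM of IgG1 PC. The plasma cell difference of 0.17 (SE 0.05, adjusted p = 0.011, edgeR) was lost without IgG1 PC replicate 3 (0.13, adjusted p = 0.0554, edgeR), with no filter (0.16, adjusted p = 0.0537), with only these groups fitted (0.16, adjusted p = 0.0877) and on the TPM scale (0.04, adjusted p = 0.68, limma). The fall from iGC to PC was 0.24 in IgE and 0.32 in IgG1.

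Plcg2 (ENSMUSG00000034330, chromosome 8, 117498291 to 117635142, plus strand), the phospholipase, had the narrowest fold range of group means on the TMM scale. Its libraries ran from 523 to 680 CPM, and its highest group mean was 1.21-fold its lowest. On the TPM scale its group means ran from 130 to 268 TPM. Its IgE step from iGC to PC (-0.09) did not pass. That step was called lower under total-count scaling (-0.56, adjusted p = 5.88e-08, edgeR) and on the TPM scale (-0.83, adjusted p = 6.17e-08, limma). IgE PC measured 583, 585 and 588 CPM against 547, 523 and 543 CPM in IgG1 PC, without overlap. This difference of 0.12 (SE 0.05, adjusted p = 0.0393, edgeR) passed in only 1 of 6 fits that left out a library, its value ranging from 0.11 to 0.14. Vav1 (ENSMUSG00000034116, chromosome 17, 57279100 to 57328031, plus strand) ran from 190.2 to 254 CPM. Its means were 251 CPM in IgE iGC, 244 CPM in IgG1 iGC, 241 CPM for IgE PC and 229.7 CPM for IgG1 PC, with neighbours overlapping, and 194 CPM in D6, which overlapped none. Vav1 did not pass in either isotype contrast, in the interaction or in either step; the plasma cell difference was 0.07 (95% interval -0.04 to 0.18). Other settings did call it: between plasma cells it was higher with DESeq2 (0.11, adjusted p = 0.0268) and lower under total-count scaling (-0.18, adjusted p = 0.00892, edgeR). The IgE step was called lower under total-count scaling (-0.53) and on the TPM scale (-0.80), and the IgG1 step under both (-0.32 and -0.69) and with DESeq2 (-0.11, adjusted p = 0.0339). The interaction was called lower under total-count scaling (-0.21, adjusted p = 0.0376, edgeR).

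Btk, Plcg2 and Cd81 each overlap 1 gene on the opposite strand (Gm15154, Gm27361 and R74862). The libraries keep strand, but whether the counting used it is not given in the sources used here.

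Cr2 (ENSMUSG00000026616, chromosome 1, 195136811 to 195176716, minus strand) encodes the complement receptors of the coreceptor, and changed the most. IgG1 iGC libraries measured 56.6, 56.9 and 59.6 CPM and IgE iGC libraries 41.2, 40.2 and 47.4 CPM. IgG1 PC stood at 8.67, 14.4 and 11.3 CPM, IgE PC at 3.89, 5.11 and 3.87 CPM and D6 at 3.72, 3.65 and 3.50 CPM, and no neighbours in this order overlapped. It fell 9.97-fold from iGC to PC in IgE (log2 -3.32, SE 0.15, adjusted p = 3.55e-11, edgeR) and 4.98-fold in IgG1 (-2.32, SE 0.14, adjusted p = 1.9e-09, edgeR). Of all genes tested, 2.32% fell further in IgE and 0.376% in IgG1. From D6 it was 11.8-fold higher in IgE iGC, 15.9-fold higher in IgG1 iGC and 3.19-fold higher in IgG1 PC, while IgE PC stood at 0.24 (95% interval -0.11 to 0.60). Its TPM is less steady than its counts, because the transcript length that the TPM values imply varied 1.899-fold between libraries, against a median of 1.12-fold over 5301 well expressed genes.

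Cd81 (ENSMUSG00000037706, chromosome 7, 143052739 to 143067934, plus strand), the tetraspanin of the coreceptor, moved the other way. D6 measured 212, 191 and 197 CPM, IgE iGC 202, 194 and 198 CPM and IgG1 iGC 202, 193 and 191 CPM, all overlapping. IgE PC rose to 494, 471 and 479.7 CPM and IgG1 PC to 434, 315 and 339 CPM. The rise was 2.43-fold in IgE (log2 1.28, SE 0.09, adjusted p = 4.2e-09, edgeR) and 1.86-fold in IgG1 (0.89, SE 0.09, adjusted p = 6.36e-07, edgeR). The plasma cell difference of 0.41 (SE 0.09, adjusted p = 0.00104, edgeR) was 0.56 without IgG1 PC replicate 1 and 0.17 under total-count scaling (adjusted p = 0.0512, edgeR). Both plasma cell groups lay above every iGC and D6 library.

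Close relatives of these genes were read to see which family member was expressed. On the TPM scale Syk made up at least 97.9% of the sum of Syk and Zap70 in every library, and Plcg2 at least 89.6% of Plcg2 and Plcg1. Tec, a kinase of the same family as Btk, went from 96.7 ± 3.8 TPM in IgE iGC to 21.9 ± 1.7 TPM in IgE PC (SD, n = 3). Tec fell by 1.40 (log2 of counts) in that step and by 0.84 in the IgG1 step. Vav2 fell by 1.23 and 0.73, and Vav3 rose by 2.10 and 1.27, in the IgE and IgG1 steps (all adjusted p under the threshold in edgeR).

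Beyond the 9 genes, 84 genes of the pathway were listed in 6 groups. In IgE PC against IgG1 PC 33 of 84 were higher and 35 lower. Of all genes tested 58.1% were called in this contrast, 27.4% higher and 30.7% lower. Of 9 Src family kinases and their regulators 1 was higher and 5 lower (median -0.20 against -0.05 for all genes), with Lck lower by 3.59 and Fyn higher by 1.15. Among 13 inhibitory receptors and phosphatases 2 were higher and 7 lower (median -0.25), including Cd72 at 4.75 ± 0.97 CPM against 63.2 ± 8.04 CPM (SD, n = 3). The 9 genes of the PI3K module held 5 higher and 3 lower (median 0.43), with Pik3cg, which encodes a catalytic subunit, higher by 0.72 and Pik3ca by 0.81. The 16 genes of the calcium module held 9 higher and 4 lower (median 0.25), with the calcium pump Atp2a2 higher by 0.99 and the calcium release channel Itpr3 lower by 0.87. The 20 adaptors and coreceptor genes held 8 higher and 9 lower, and the 17 genes of the DAG, RAS and NF-kB module 8 and 7. With total-count scaling the 84 genes split into 19 higher and 44 lower, the PI3K module into 4 and 4 and the calcium module into 5 and 5. All genes tested split into 2274 higher and 7261 lower under that scaling.

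From iGC to PC, more of these genes fell than rose in both isotypes: 48 fell and 21 rose in IgE (median -0.50 against -0.08 for all genes), and 50 fell and 16 rose in IgG1 (median -0.43 against 0.01). Of all genes tested, 33.6% were called lower and 30.5% higher in the IgE step, and 29.0% and 30.1% in the IgG1 step. Inhibitory receptors and phosphatases fell in 10 and rose in 2 of 13 in IgE (median -1.49) and fell in 9 and rose in 3 in IgG1 (median -0.50). Cd72 fell by 5.21 and Ptpn6, a phosphatase that restrains the receptor, by 1.49 in IgE, and Ptpn6 fell by 0.91 and Siglecg by 1.26 in IgG1. Src family kinases and their regulators fell in 7 of 9 in IgE, with 1 rise, and in 6 of 9 in IgG1; Blk fell by 2.00 and 0.80. Pik3cg rose by 2.15 and 2.26. Total-count scaling gave 64 falls and 10 rises in IgE, and 62 and 12 in IgG1. All genes tested then split into 8742 falls and 2651 rises in IgE, and 6844 and 3224 in IgG1. Between the iGC groups 7 of the 84 were higher and 4 lower in IgE, where 1.99% of all genes were called higher and 1.88% lower. Gcsam, a germinal centre adaptor, measured 44.9 ± 2.7 CPM in IgE iGC and 8.97 ± 1.67 CPM in IgG1 iGC (SD, n = 3), and Pik3cg was higher by 0.82.

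**Figure D5:**
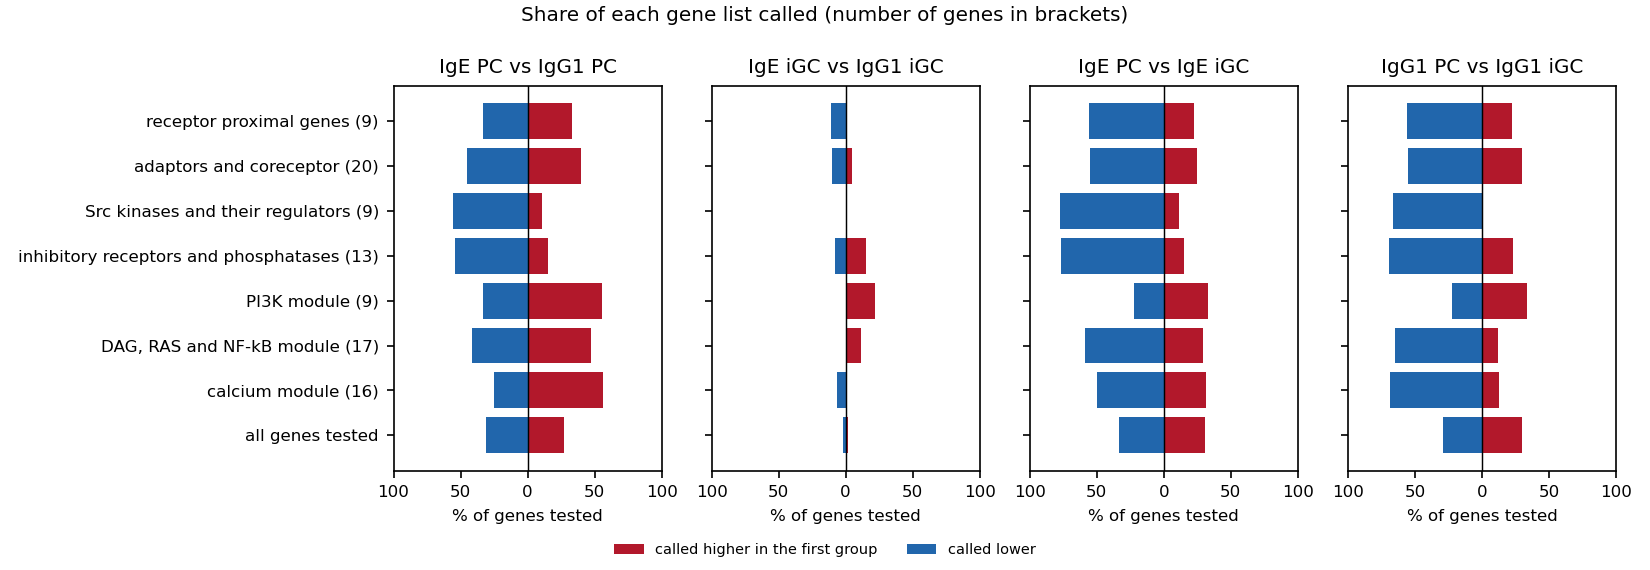
Share of the genes of each list called higher (right of 0) or lower (left of 0) in the first group of each comparison, in percent of the genes tested, beside the same share over all 15692 genes. The 9 receptor proximal genes split 3 and 3 between the plasma cell groups and 2 and 5 in both plasma cell steps, and the shares depend on the TMM scaling as given in the text.

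Against D6, where the 4 comparisons again share 3 libraries, the pathway genes split into 58 higher and 13 lower in IgE iGC and 57 and 14 in IgG1 iGC, and into 38 and 33 in IgE PC and 38 and 25 in IgG1 PC. All genes tested split into 5152 higher and 5698 lower, 5085 and 5645, 5792 and 6191, and 5636 and 5645 in the same order. Under total-count scaling the plasma cell splits were 21 higher and 54 lower in IgE PC, and 22 and 40 in IgG1 PC. The splits of all genes under that scaling, given above for D6, also moved towards lower. The interaction called 22 higher and 31 lower of these genes, and 3101 and 3632 of all genes; under total-count scaling it called 14 and 41, and 1544 and 5603 of all genes.

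Over the 15 libraries, the genes whose log2 CPM most resembled that of each member were listed as a description among 8925 genes; the libraries fall into 5 groups and the points are not independent. Cd79a was closest to Eif3k (Pearson r = 0.990) and Rfc2 (0.988), and Cd79b to Csnk1g2 (0.992) and Psen2 (0.991). Syk was closest to Gbp7 (0.968) and Flt3 (0.951), a lower likeness than that of Cd81 to Ppib (0.994) and Cdk2ap2 (0.993) or of Cr2 to Entpd6 (0.996) and Trim30b (0.996). Btk was closest to Smpdl3a (0.987) and Slc15a4 (0.986), Blnk to Fbrs (0.991) and Pou6f1 (0.984), Plcg2 to Tesk1 (0.951) and Pyroxd1 (0.944) and Vav1 to Slc37a4 (0.969) and Grk2 (0.966).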

How the data were processed

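RNA-seq of polyA RNA was sequenced from 15 libraries in 5 groups of 3, with 76 bp reads from 1 end and strand kept, as the labels' protocols state. The authors deposited 1 table with RSEM expected counts and TPM per gene, per the file headers; expected counts are estimated counts that need not be whole, and the deposited TPM values are scaled for effective length and library total. The submitters' processing notes name GRCm38, cutadapt 1.9.1, STAR 2.5.2a, RSEM 1.3.0 and DESeq2 1.12.3; the annotation and any filter are not given in the sources used here. Symbols were found for 51633 of 51912 identifiers. Gene coordinates are from GENCODE vM21 and promoter sequences from RefSeq, both on GRCm38.

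Expected counts were rounded to whole numbers, filtered with filterByExpr (minimum count 10, minimum total 15) and scaled by TMM. All 15 libraries entered a single edgeR 4.0.16 fit in R 4.3.3 (robust glmQLFit, then glmQLFTest) in which each group had its own mean, with 10 residual degrees of freedom and a biological coefficient of variation of 10.4%. P-values were Benjamini-Hochberg adjusted over 15692 genes and genes under 0.05 were called. A standard error is the log2 fold change over the square root of F, which is approximate. Log2 fold changes are the first group minus the second. The 9 genes and the gene lists were chosen with earlier results of these data known. The genes named are the 9 members, their relatives, the 2 genes most like each member by Pearson r (among genes with a mean of at least 10 CPM in some group), up to 2 genes per pathway list and comparison with the smallest p, and markers; some items are not reported here. Alternatives were DESeq2 size factors, total counts and leaving out immunoglobulin genes for the scaling, no filter, DESeq2 1.42.0, only the groups compared, the replicate number as a block, limma 3.58.1 on log2(TPM + 1), and each library left out. The edgeR script was tested on simulated data. Reads carry no molecular identifiers, so counts are not independent molecules. The number of per-sample columns not matched to a library was 0.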

Additional observations from a re-analysis of the deposited data

Results flagged for a closer look

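For 4 genes the IgE step from iGC to PC differed from the IgG1 step by the test of that difference itself (edgeR interaction, adjusted over all genes). Cd79a had an interaction of -0.76 (log2, adjusted p = 7.38e-05), with leave-one-out values from -0.83 to -0.65. Cr2 had -1.002 (adjusted p = 0.00104), with -1.15 to -0.80 and a lost call with limma on log2(TPM + 1) (-0.73, adjusted p = 0.128), and Syk -0.33 (adjusted p = 0.0059), with -0.35 to -0.30. Cd81 had 0.39 (adjusted p = 0.0209), with 0.30 to 0.54, and lost its call without IgG1 PC replicate 3 (0.34, adjusted p = 0.0532). Its call was also lost under total-count scaling (0.16, adjusted p = 0.202, edgeR) and with limma on log2(TPM + 1) (0.18, adjusted p = 0.146). Since 42.9% of all genes tested were called in this contrast, 4 of 9 is close to the share of all genes.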

How the results depend on the processing

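The 9 genes in 9 contrasts gave 81 log2 fold changes, refitted under 1188 alternatives in all; 35 lost a call and 25 gained one in the same direction. Values called as reported changed sign in 17 cases, 7 under total-count scaling and 10 on TPM, and values not called in 24 cases, of which 2 were called in the alternative (both Vav1 under total-count scaling). Of those 24, 6 came from total-count scaling, 5 from TPM, 3 from leaving out immunoglobulin genes, 2 from fitting only the groups compared and 8 from leaving out a library. The sign changes with a call on either side were, under total-count scaling, Btk (-0.082), Plcg2 (-0.13) and Vav1 (-0.18) in IgE PC against IgG1 PC, Blnk in the IgE step (-0.12) and the IgG1 step (-0.030), Vav1 in the interaction (-0.21), Cd79a (-0.13) and Vav1 (-0.23) in IgE PC against D6, and Vav1 in IgG1 PC against D6 (-0.043). With limma on log2(TPM + 1) they were Plcg2 between plasma cells (-0.030), Blnk in the IgE step (-0.38) and the IgG1 step (-0.41), Cd79a (-0.49), Cd79b (-0.29), Btk (-0.33) and Vav1 (-0.59) in IgE PC against D6, and Cd79b (-0.10), Btk (-0.37) and Vav1 (-0.49) in IgG1 PC against D6. Total-count and TPM scaling count immunoglobulin reads in the total, and the cause of each change was not tested.

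Between the iGC groups the count of members called was 1, and 2 under total-count scaling, 3 with only the groups compared and 2 with limma on TPM; the count of all genes was 607, and 1503 with only the groups compared, 937 with DESeq2 and 323 to 403 with a library left out. The interaction called 6733 genes and 4345 with limma on TPM. IgE PC against D6 called 8 members and 5 under total-count scaling. Fits without single libraries gave 4 to 6 members between plasma cells (6 in the full fit), 7 to 9 in the IgG1 step (7) and 3 to 5 in the interaction (4). Of all genes they called 8223 to 9356 (9119 in the full fit), 8326 to 9803 (9273) and 5881 to 7418 (6733) in the same order. The Plcg2 call in IgG1 iGC against D6 was lost in each of the 6 fits without 1 library. The Cd79a to Cd79b ratio kept its direction in all 56 alternatives.

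The labels do not say that replicate numbers pair libraries. Deviations of same-numbered libraries correlated at -0.23 to 0.15, with 8 of 30 values over 0.1, and 7 of 15 libraries correlated best with their own number. With that number as a replicate block, the model called 9006 genes between plasma cells against 9119, and 580 between iGC groups against 607. It left the call of the 9 genes as it was in all 81 results. Cr2 rests on 111 to 2310 counts per library and the other genes on at least 3803, so Cr2 is the least precisely measured.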
